A study of Xenopus tropicalis with 9 samples.

Results

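The secreted matrix metalloproteinase genes mmp9-th, mmp9, mmp13, mmp13l, mmp3 and mmp11 were followed in the tail of wild-type Xenopus tropicalis, a frog whose tadpole tail is resorbed during metamorphosis. These 6 genes were taken from the 19921 rows of the deposited count table by their symbols, which come with the authors' lists of selected genes. The data were 9 RNA-seq libraries in 3 groups of 3: whole tail at stage 60, placed before metamorphosis by the submitters, whole tail at stage 63, during metamorphosis, and tail of stage 63 after removal of the notochord, which is a rod of vacuolated cells along the body axis (dissected tail below). No group of tail without notochord at stage 60 was analysed here. The labels give no age in days, sex or number of animals per library. They do not say whether replicate libraries come from different animals, and the tests below therefore rest on a spread between libraries that may be technical.

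Matrix metalloproteinases are secreted or membrane-bound zinc-dependent enzymes. They are made as inactive proenzymes and cut proteins of the extracellular matrix once the propeptide is removed. Collagenases cut the intact triple helix of fibrillar collagen, gelatinases digest the unwound chains and basement membrane collagen, and stromelysins of the mmp3 type cut proteoglycans and glycoproteins and can activate procollagenases. In tadpoles, thyroid hormone drives tail resorption, during which the muscle, the fin, the skin matrix and finally the notochord with its collagen sheath are lost, and several metalloproteinase genes are known hormone response genes there.

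Library totals lay between 26928846 and 34836531 counts assigned to genes. Of all genes, 14125 passed the filter on low counts and were tested, among them each of the 6 metalloproteinase genes. Levels are given as CPM, counts scaled to the size of the library, with a TMM factor that corrects for a few abundant genes taking up much of a library, and differences as log2 with their standard error (SE), which is approximate. Notochord genes with a symbol were mostly lower after the dissection. Of 11 tested notochord markers, 9 were lower in dissected tail and none was higher, beside 11.1% and 14.5% of all genes tested. Their summed level lay between 144 and 150 CPM in whole and between 59.1 and 75.4 CPM in dissected tail. At stage 60 it lay between 3678 and 3718 CPM, so most of this signal was already absent from whole tail at stage 63. Between the stages 7 of the 11 were lower and 3 higher at stage 63, beside 40.8% and 43% of all genes tested. These 7 and foxa2 (stage log2 change -0.12) have a symbol only through the authors' list of genes with a whole to notochord-removed ratio over 2. Their direction after the dissection was therefore set by that selection, and the counts and sums are given as a description. The marker list was chosen with earlier results of these data known. The notochord transcription factor gene tbxt stood at 4.08 CPM in whole and 0.398 CPM in dissected tail (group means). Unlike the sum, tbxt was higher in whole tail at stage 63 than at stage 60 (log2 change 0.73, edgeR adjusted p = 3.24e-04). In whole tissue, fewer cells of a type and less RNA per cell cannot be told apart.

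Positions are the count table's own, on scaffolds of a build that none of the sources used here names. Of the 6 genes, 5 lie in 2 short stretches. The gelatinase genes mmp9-th (ENSXETG00000033145, scaffold GL172665.1, 3944807 to 3950896, minus strand) and mmp9 (ENSXETG00000008703, 3959986 to 3968330, minus strand) are direct neighbours, with 9089 bases between them. The stromelysin gene mmp3 (ENSXETG00000022185, scaffold GL172755.1, 270277 to 291113), the collagenase gene mmp13 (ENSXETG00000022190, 405836 to 412944) and the collagenase-like mmp13l (ENSXETG00000022215, 638104 to 645005) share a stretch of 375 kb that holds 10 genes, and lie on its minus strand. The stromelysin-3 gene mmp11 (ENSXETG00000022372, scaffold GL172648.1, 4315240 to 4323682, plus strand) lies apart. None of the 6 overlapped another gene of the table.

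At stage 60 the 6 transcripts together took 0.0101% to 0.0112% of all counts of a library. In whole tail at stage 63 they took 0.887% to 0.917%, and in dissected tail 0.455% to 0.476%. Between stage 60 and stage 63 each of the 6 was higher in every whole-tail library of the later stage, by between 4.14-fold for mmp3 and 500-fold for mmp9-th. With library size alone as the scale these changes were larger, at 2.87 and 9.79 on the log2 scale, and in the authors' deposited table the FPKM ratios were 7.31 and 886. All 6 passed the test as higher, where 43% of all genes tested did, and for 44% the libraries of the 2 stages were apart in that direction. Nearly all symbols were deposited with genes that the authors selected because their stage 63 to stage 60 ratio exceeded 2. As the 6 all stand in that list, this direction was set by the selection and the stage values are given as a description.

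**Figure D1:**
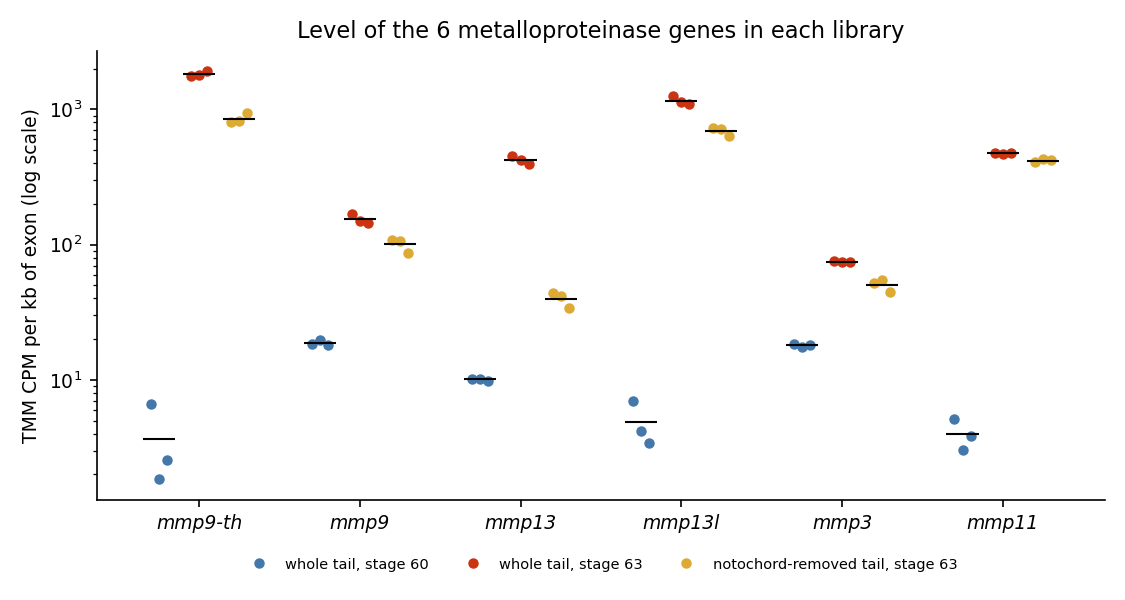
Level of the 6 metalloproteinase genes in each of the 9 libraries, as TMM-scaled CPM per kilobase of exon on a log axis. Points are libraries and bars are group means (n = 3); the stage 63 groups of mmp13 lie much farther apart, at 394 to 453 and 34.0 to 43.5 CPM per kb, than those of mmp11, at 468 to 477 and 406 to 426 CPM per kb.

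The gelatinase gene mmp9-th, a Xenopus duplicate of mmp9 whose name marks its response to thyroid hormone, was measured at 12.9, 3.60 and 4.97 CPM in stage 60 replicates 1, 2 and 3. In whole tail at stage 63 it stood at 3454, 3520 and 3746 CPM. All 3 lay far above every stage 60 library. Its log2 change of 8.96 (SE 0.41) was the second largest of all genes tested (rank 2). The stage 60 libraries varied widely, with replicate 1 above both others, and without that replicate the log2 change was 9.71. The neighbouring gene mmp9, which encodes the gelatinase shared with other vertebrates, started higher, at 50.2, 53.8 and 49.9 CPM, and reached 463, 410 and 398 CPM. Its log2 change was 3.05 (SE 0.089).

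Of the collagenase genes, mmp13 encodes collagenase 3, an enzyme that also acts in cartilage and bone of mammals. It stood at 22.0, 22.2 and 21.5 CPM at stage 60 and at 985, 920 and 857 CPM in whole tail at stage 63, a log2 change of 5.39 (SE 0.10). The collagenase-like gene mmp13l stood at 9.91, 5.92 and 4.86 CPM at stage 60 and at 1768, 1613 and 1563 CPM at stage 63. This was a log2 change of 7.90 (SE 0.18), at rank 5 of all genes tested, and as for mmp9-th the highest stage 60 value was that of replicate 1.

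The stromelysin gene mmp3 was measured at stage 60 at 63.8, 60.2 and 62.9 CPM. It stood at 259, 256 and 258 CPM in whole tail at stage 63, the smallest change of the 6 (log2 2.05, SE 0.075). The stromelysin-3 gene mmp11, a known hormone response gene of tadpoles whose proenzyme is activated inside the cell by furin, stood at 7.35, 4.33 and 5.52 CPM at stage 60. It reached 686, 673 and 680 CPM at stage 63, a log2 change of 6.89 (SE 0.12), at rank 16 of all genes tested. Within whole tail at stage 63 the libraries of mmp3 and of mmp11 lay closer together than those of the collagenase and gelatinase genes.

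Levels can be compared between genes only per length, and on that scale the order of the 6 turned over between the stages. At stage 60 mmp9 (18.7 CPM per kb) and mmp3 (18.03 CPM per kb) led, with overlapping libraries. They were followed by mmp13 at 10.1 CPM per kb, and by mmp13l, mmp11 and mmp9-th, at 4.86, 3.99 and 3.66 CPM per kb, where each overlapped the next. In whole tail at stage 63 the order was mmp9-th (1827 CPM per kb), mmp13l (1161 CPM per kb), mmp11 (473 CPM per kb), mmp13 (423 CPM per kb), mmp9 (154 CPM per kb) and mmp3 (74.6 CPM per kb), and no neighbours in that order overlapped. In dissected tail the first 3 places were the same, and mmp13 had moved from place 4 to place 6, at 39.8 CPM per kb, below mmp9 (100.4 CPM per kb) and mmp3 (50.6 CPM per kb).

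Taken as shares of their summed per-length level, mmp9 and mmp3 made up 31.7% ± 3.53 and 30.5% ± 2.18 (SD, n = 3) at stage 60, and 3.75% ± 0.256 and 1.81% ± 0.0177 in whole tail at stage 63. The share of mmp9-th went from 5.96% ± 3.61 to 44.4% ± 2.25, and that of mmp13l from 8.06% ± 2.34 to 28.2% ± 1.47. In dissected tail mmp13 made up 1.85% ± 0.244, against 10.3% ± 0.624 in whole tail of the same stage, and mmp11 made up 19.4% ± 0.351 against 11.5% ± 0.0795. The summed level of the 6 was 59.3 ± 5.41 CPM per kb at stage 60, 4113 ± 68.2 in whole and 2150 ± 16.6 CPM per kb in dissected tail at stage 63. A share falls when another gene's level rises, so it says nothing of a gene's own change.

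**Figure D2:**
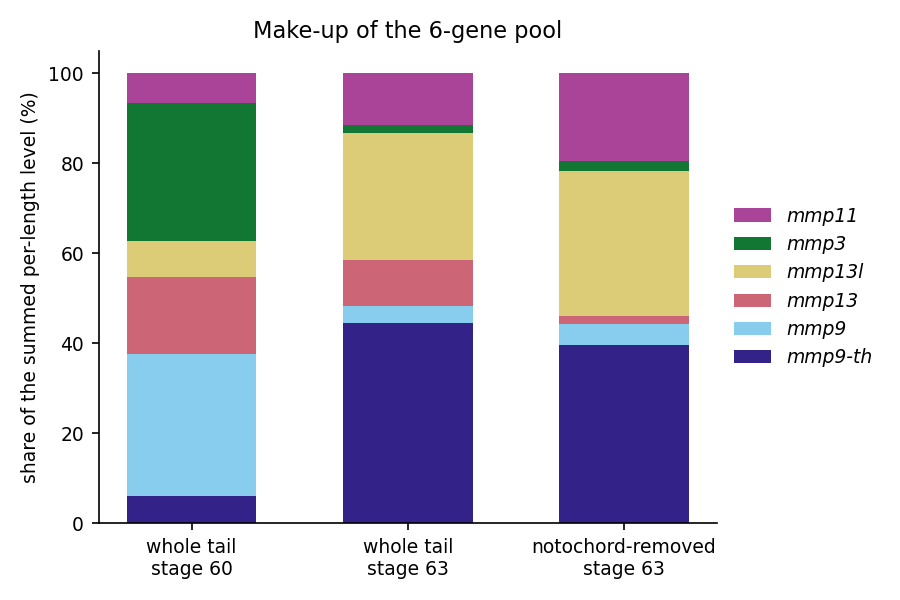
Share of each of the 6 genes in their summed level per kilobase (percent, stacked to 100), as means of 3 libraries per group. The pool was mostly mmp9 and mmp3 at stage 60 (31.7% and 30.5%) and mostly mmp9-th and mmp13l in whole tail at stage 63 (44.4% and 28.2%); the mmp13 band is 10.3% in whole and 1.85% in dissected tail.

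The second comparison asked which of these transcripts were more abundant at stage 63 when the notochord was part of the tissue. No group of mock-dissected whole tail was analysed here. Loss of the notochord, handling during the dissection and any loss of adjacent tissue therefore cannot be told apart. A change for the notochord below means this difference between whole and dissected tail. For this comparison the symbols do not depend on the difference, because each of the 6 is named through the stage list, although the whole-tail libraries of stage 63 also entered that list. The choice of the 6 genes itself was made with earlier results of these data known. Of the 6 genes, 5 were higher in whole than in dissected tail and 1, mmp11, did not pass (edgeR's quasi-likelihood test, Benjamini-Hochberg adjusted over all genes tested), where 11.1% of all genes tested were called higher. The libraries of the 2 groups did not overlap for any of the 6, with whole tail higher each time, as for 18.3% of all genes tested. The median log2 difference of the 6 was 0.69, against 0.0065 over all genes tested and 0.061 over the tested genes with a symbol.

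The largest difference was that of mmp13. Its level was 94.7, 91.2 and 74.0 CPM in the dissected libraries, against at least 857 CPM in whole tail, so that 9.41% of the whole-tail level was measured after the dissection. The log2 difference, whole minus removed, was 3.41 (SE 0.089; 95% interval 3.22 to 3.60; adjusted p = 9.00e-16), at rank 13 among all genes tested. For comparison, the 11 tested notochord markers ran from -0.013 for sox9 to 5.35 for chad, with a median of 1.76, and tbxt differed by 3.36 (SE 0.20). Most of these markers have a symbol only because their whole to notochord-removed ratio exceeded 2, so the selection favours large values in this range and median. In the authors' deposited table, the ratio of mean FPKM between these groups was 10.4 for mmp13, and among the 6 only mmp13 and mmp9-th (2.10) exceeded 2 there.

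The gelatinase gene mmp9-th stood at 1563, 1605 and 1829 CPM in dissected tail, less than in any whole-tail library of the stage. Its log2 difference of 1.10 (SE 0.28; 95% interval 0.44 to 1.76) passed at adjusted p = 0.0266. The adjusted p lay between 0.0665 and 0.0891, and the call was lost, without replicate 1, 2 or 3 of whole tail at stage 63 or without replicate 1 or 2 of dissected tail. With DESeq2 it was lost as well (adjusted p = 0.0741), and also in edgeR with the replicate number added to the design as a block (adjusted p = 0.0614). Fitted on the 6 stage 63 libraries of this comparison alone, without the scattered stage 60 values, the difference was 1.10 with adjusted p = 4.00e-06, and over all alternatives that test mmp9-th by its own counts the adjusted p lay between 2.04e-07 and 0.0891. Its neighbour mmp9 stood at 295, 292 and 240.05 CPM in dissected tail, below all whole-tail libraries, with a log2 difference of 0.62 (SE 0.080; adjusted p = 1.51e-05).

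The collagenase-like gene mmp13l stood at 1025, 1010.3 and 899 CPM in dissected tail, with a log2 difference of 0.75 (SE 0.13; adjusted p = 7.63e-04). For mmp3 the dissected libraries were at 180.1, 189.96 and 154 CPM, a log2 difference of 0.56 (SE 0.070; adjusted p = 1.09e-05). In both genes the groups were apart, and in both the lowest of the 3 dissected libraries was replicate 3, as it was for mmp13 and mmp9 but not for mmp9-th or mmp11. For mmp11 the dissected libraries were at 583, 612 and 607 CPM. Its log2 difference of 0.18 (SE 0.083; 95% interval 0.0030 to 0.35) did not pass (adjusted p = 0.127; 0.0298 to 0.248 over the alternatives, with DESeq2 the one setting in which it passed), and the interval runs up to 1.28-fold.

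**Figure D3:**
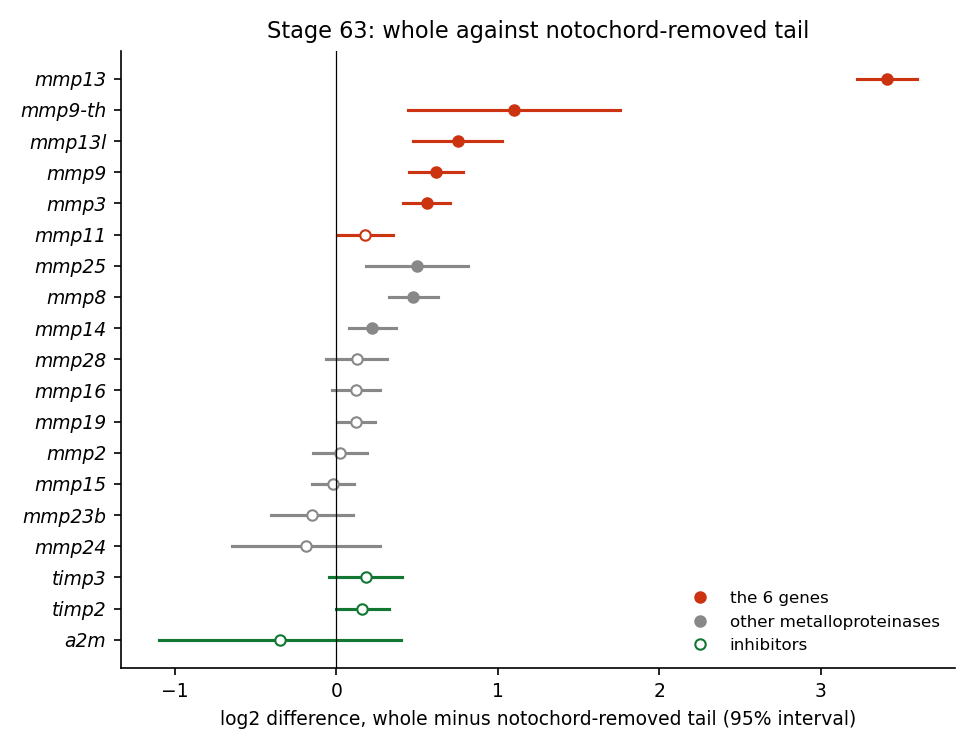
Log2 difference at stage 63 between whole and dissected tail for the 6 genes, 10 other metalloproteinase genes and 3 inhibitor genes, with 95% intervals from the fit across all genes; filled points have an adjusted p under 0.05. mmp13 lies at 3.41, apart from all the others, of which the largest is mmp9-th at 1.10.

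To set genes against each other without any scaling between libraries, raw counts of pairs were divided within each library. The ratio of mmp13 to mmp13l, which lie on the same stretch, was 0.557, 0.570 and 0.548 in whole tail at stage 63 and 0.0923, 0.0902 and 0.0823 in dissected tail. This was a 6.33-fold difference with no overlap (exact two-sided permutation test, p = 0.1, the smallest that 3 against 3 libraries allow). The ratio of mmp13 to mmp11 was 1.44, 1.37 and 1.26 in whole tail and 0.162, 0.149 and 0.122 in dissected tail, a 9.43-fold difference with the same exact p = 0.1. The ratio of mmp9-th to mmp9 was 7.46, 8.58 and 9.42 in whole tail and 5.29, 5.49 and 7.62 in dissected tail. The mean ratio was 8.49 ± 0.987 in whole and 6.13 ± 1.29 (SD, n = 3) in dissected tail and the libraries overlapped (exact two-sided permutation test, p = 0.2, where 0.1 is the smallest possible), which does not settle whether the neighbouring gelatinase genes differed in this comparison. At stage 60 the same ratio was 0.257, 0.0670 and 0.0996, that is, mmp9 had more counts than mmp9-th at stage 60 and fewer at stage 63.

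**Figure D4:**
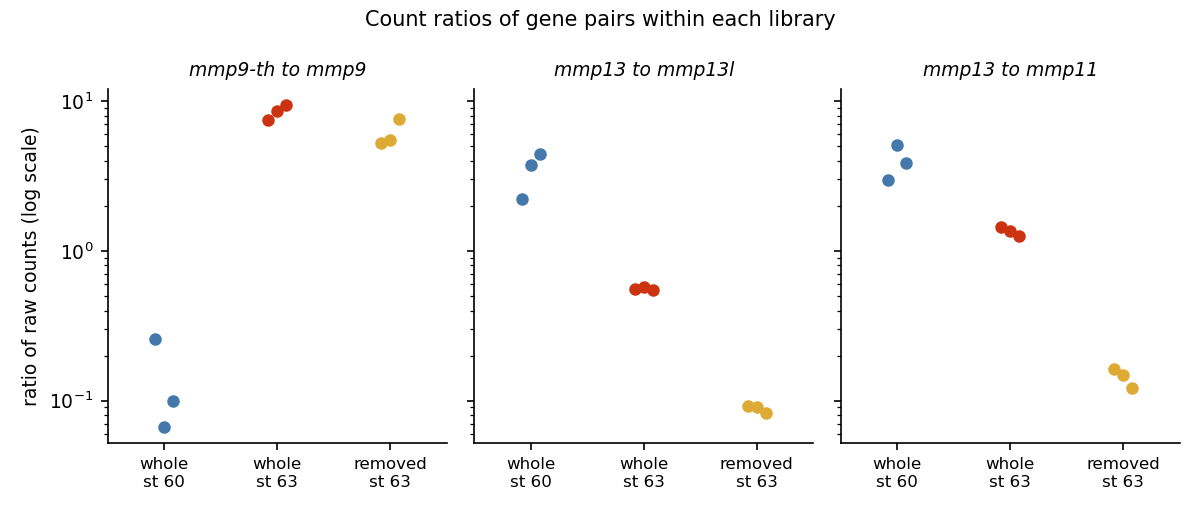
Ratio of raw counts of gene pairs within each library (log axis, shared by the 3 panels), by group; each point is 1 of 3 libraries per group. The ratios of mmp13 to mmp13l and of mmp13 to mmp11 are lower in dissected than in whole tail of stage 63 in every library, while the ratios of mmp9-th to mmp9 overlap.

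The sources used here do not say how multiply mapped reads were counted, so reads could be split between similar genes. With the counts of each pair summed, mmp9 plus mmp9-th differed by 1.04 (adjusted p = 3.79e-09) and mmp13 plus mmp13l by 1.27 (adjusted p = 1.10e-09) between whole and dissected tail, on the log2 scale by edgeR's quasi-likelihood test.

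Notochord-removed tail at stage 63 was also set beside whole tail at stage 60, a contrast in which stage and tissue differ together and which shares its libraries with both comparisons above. The log2 differences were 7.86 for mmp9-th (SE 0.40), 7.15 for mmp13l (SE 0.18), 6.71 for mmp11 (SE 0.12), 2.43 for mmp9 (SE 0.087), 1.98 for mmp13 (SE 0.092) and 1.49 for mmp3 (SE 0.074). All 6 passed, where 43.3% of genes tested were called higher, and the stage selection bears on this count too. For mmp13 the tissue left after the dissection held 3.95-fold its stage 60 level, against 42.0-fold in whole tail, and for mmp11 105-fold against 119-fold.

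The stretch that holds mmp3, mmp13 and mmp13l was read gene by gene in the order of the scaffold. Of its 10 genes, 7 were tested. The collagenase gene mmp8, known from neutrophils in mammals, lies between mmp13 and mmp13l and stood at 29.3 CPM at stage 60, 489 CPM in whole and 352 CPM in dissected tail (group means). Its log2 difference for the notochord was 0.48 (SE 0.072; adjusted p = 8.60e-05). The next row, ENSXETG00000031177 (510794 to 514102), which has no symbol in the files, had log2 changes near those of mmp8, at 4.16 (SE 0.13) for the stage and 0.55 (SE 0.085) for the notochord, where mmp8 had 4.06 and 0.48. ENSXETG00000031108 (552936 to 559274), on the other strand and also without a symbol, was low, at 0.218 CPM at stage 60 and 3.66 CPM in whole tail at stage 63, with log2 changes of 4.08 (SE 0.33) and 0.53 (SE 0.17); the latter did not pass without replicate 1 or 3 of whole tail at stage 63 or replicate 3 of dissected tail (edgeR adjusted p at most 0.0858).

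The direct neighbour of mmp13 on the mmp8 side, MMP20, which encodes an enzyme of tooth enamel in mammals, had at most 7 counts in any library, and the 2 rows between mmp3 and mmp13 had at most 1. A difference in these 3 was not detectable at this depth. The row next to mmp13l, ENSXETG00000022198 (589745 to 602272), went the other way, at 123 CPM at stage 60, 102 CPM in whole and 136 CPM in dissected tail. Its log2 changes of -0.27 (SE 0.065) for the stage and -0.41 (SE 0.064) for the notochord both passed, and with library size alone as the scale the former turned to 0.56. Outside the stretch, birc2, an inhibitor of apoptosis, changed by 0.98 (SE 0.066) and 0.28 (SE 0.065), and ENSXETG00000022216 by -0.069 (SE 0.062) and 0.13 (SE 0.060), of which neither passed; with library size alone as the scale its stage change turned to 0.75 and passed (edgeR adjusted p = 9.80e-10). Among the 7 tested genes of the stretch, 6 were called higher in whole than in dissected tail, beside 11.1% of all genes tested. They include mmp3, mmp13 and mmp13l, which were already counted above, and mmp13 had the largest difference.

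**Figure D5:**
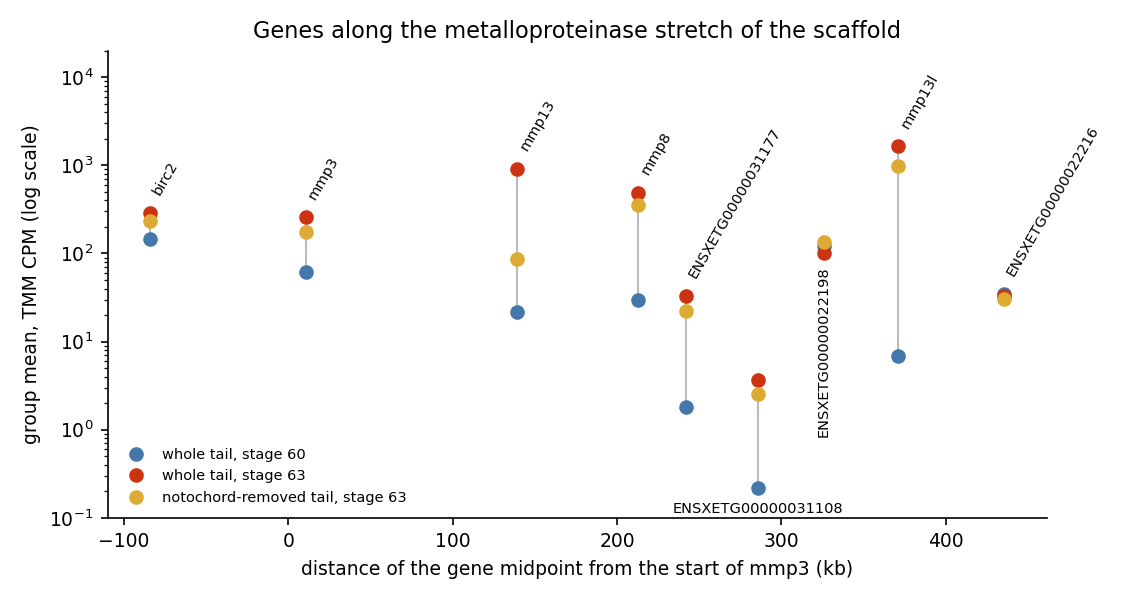
Group mean levels (TMM-scaled CPM, log axis) of the 7 tested genes of the stretch around mmp13 and of a flanking gene on either side, against the distance of the gene's midpoint from the start of mmp3 in kilobases. The gap between whole and dissected tail at stage 63 is widest at mmp13, at 921 against 86.6 CPM.

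Other metalloproteinases are membrane-bound or secreted enzymes of the same family. Of 19 symbols listed, 11 were named and 10 tested. At stage 63, 3 of these 10 were called higher in whole than in dissected tail, beside 11.1% of all genes tested. The other 7 did not pass and none was lower, with a median log2 difference of 0.12 over the 10. Besides mmp8, the 3 were mmp14, a membrane-anchored enzyme that activates the mmp2 proenzyme (0.22, SE 0.070, adjusted p = 0.0238), and the membrane-anchored mmp25, at 3.64 CPM in whole and 2.56 CPM in dissected tail (0.50, SE 0.15, adjusted p = 0.0192). Both calls were lost without replicate 1 or 2 of dissected tail or replicate 1 of whole tail at stage 63, and also without whole-tail replicate 2 for mmp14 and replicate 3 for mmp25 (edgeR adjusted p at most 0.0691 and 0.101). The gelatinase gene mmp2 stood at 6633 CPM in whole and 6524 CPM in dissected tail and differed by 0.024 (SE 0.080; adjusted p = 0.860). Between the stages all 10 were called higher, under the same selection as above and beside 43% of all genes tested. Of these, mmp19 changed by 4.44 (SE 0.083) and mmp14 by 4.43 (SE 0.080).

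Of 6 inhibitor symbols 3 were tested, and none passed between whole and dissected tail. The inhibitor gene timp2 stood at 3744 and 3345 CPM (0.16, SE 0.078, adjusted p = 0.134), timp3 at 5.29 and 4.65 CPM, and the plasma protease trap gene a2m at 6.64 and 8.38 CPM. From stage 60, at 377 CPM, timp2 changed by 3.31 (SE 0.085), less on the log2 scale than mmp9-th, mmp13, mmp13l and mmp11 and more than mmp9 and mmp3. Of 7 tested genes that act on proenzymes or on the plasmin system, all 7 were called higher at stage 63. The selection of named genes by their stage ratio favours this direction, and 43% of all genes tested were called higher. In whole against dissected tail 2 of the 7 were higher, beside 11.1% of all genes tested. These were furin, the convertase that cuts the mmp11 proenzyme (119 against 103 CPM; 0.22, SE 0.062, adjusted p = 0.0134, and 0.0656 without replicate 2 of whole tail at stage 63), and the plasmin inhibitor gene serpinf2 (0.46, SE 0.11, adjusted p = 0.00359).

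Among 13 tested genes of matrix proteins these enzymes can act on, 12 were called higher and 1 lower at stage 63 than at stage 60, under the same selection, where 43% of all genes tested were called higher and 40.8% lower. Of the 13, 1 was higher and 1 lower in whole than in dissected tail, beside 11.1% and 14.5% of all genes tested. The cartilage and notochord collagen gene COL9A1, also among the notochord markers above, was the one lower at stage 63 and the one higher in whole tail. Being lower at stage 63, it has a symbol only through the authors' list of whole to notochord-removed ratios over 2. Its direction between the stage 63 groups was therefore set by that selection. It stood at 39.9, 4.44 and 0.610 CPM in the 3 groups, in the order stage 60, whole and removed. The proteoglycan gene bgn was the one lower in whole tail (1421 against 1829 CPM). The fibrillar collagen gene col3a1 changed by 3.19 (SE 0.089) between the stages and stood at 2891 CPM in whole and 3011 CPM in dissected tail. Of 10 tested genes of thyroid hormone response and transport, all 10 were called higher at stage 63, again among genes named mostly for a stage ratio over 2 and beside 43% of all genes tested. Between whole and dissected tail 1 of the 10 was higher and 1 lower, beside the same 11.1% and 14.5% of all genes tested. The higher one was the transporter gene slc16a10 (0.29, SE 0.072) and the lower one the hormone-binding protein gene crym (-0.46, SE 0.068). The receptor gene thrb stood at 35.3 and 34.3 CPM.

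Transcription factor genes known from metalloproteinase promoters in mammals were also compared between the stage 63 groups. Of 13 tested, 2 were higher and 5 lower in whole tail, where 11.1% of all genes tested were called higher and 14.5% lower. Of the 5, rela (-0.20, SE 0.070, edgeR adjusted p = 0.0397) lost its call in 9 of 16 alternatives. Among the AP-1 genes, junb (165 CPM in whole and 359 CPM in dissected tail; -1.12, SE 0.061), jun (95.7 and 204 CPM; -1.09, SE 0.065) and fosl1 (1.39 and 5.77 CPM; -2.05, SE 0.15) were lower in whole tail, as was jund (-0.73). The AP-1 genes fosl2 (-0.12, edgeR adjusted p = 0.175) and jund.2 (-0.19, edgeR adjusted p = 0.238) did not pass. The factor gene runx2, known to act on mmp13 in mammalian bone, was higher in whole tail, at 28.4 against 23.7 CPM (0.26, SE 0.068, adjusted p = 0.00871, and 0.0564 without replicate 3 of whole tail at stage 63); it was not among the 3 smallest p-values and was named after its values were seen. Their part in the differences of the 6 genes was not tested.

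Some markers of other cell types differed between the stage 63 groups, while most of the fibroblast, epidermis and osteoclast markers did not pass. Of 11 macrophage and leukocyte markers, 5 were higher and 1 lower in whole than in dissected tail, beside 11.1% and 14.5% of all genes tested. The lower one, lcp1 (edgeR adjusted p = 0.0287), lost its call in 5 of 16 alternatives and cybb, among the higher (0.0293), in 4 of 16. Their summed level ran from 537 to 572 CPM at stage 60, from 1272 to 1293 CPM in whole tail at stage 63 and from 1198 to 1228 CPM in dissected tail. The granulocyte gene mpo had the smallest p (170 against 93.0 CPM; 0.87, SE 0.072), followed by the integrin gene itgb2 (0.42, SE 0.057) and the myeloid factor gene spi1 (0.34, SE 0.063), while csf1r, the receptor of macrophages, stood at 571 and 577 CPM. No listed marker that was tested was at 0 in a group mean. For 7 fibroblast markers the summed level ran from 6479 to 6690 CPM in whole tail and from 6112 to 6261 CPM after dissection. Of them 1, the protease gene FAP, was higher in whole tail (1286 against 897 CPM; 0.52, SE 0.064), and the other 6 did not pass. The levels of FAP and of mpo alone fell by about as much as the sums of their lists. These 2 sums therefore do not show a shift of their markers as a set. For 11 epidermis markers it was 4853 to 5069 and 4616 to 4777 CPM, with 3 higher and 1 lower. Of these 3, itgb4 (edgeR adjusted p = 0.0147) lost its call in 3 of 16 alternatives. The 3 tested osteoclast markers had summed levels of 267 to 309 and 229.97 to 278 CPM, and none passed. The 4 tested muscle markers had 82.7 to 86.7 and 39.2 to 55.5 CPM, with 3 higher in whole tail, and 1 of these, des.2, is also in the notochord list. These 3 were lower at stage 63 than at stage 60, so they have a symbol only through the authors' list of whole to notochord-removed ratios over 2. Their direction between the stage 63 groups, and with it the fall of the sum, was set by that selection. The counts of fibroblast, epidermis, osteoclast and muscle markers also stand beside 11.1% of all genes tested called higher in whole tail and 14.5% lower. The part of these cell types in the differences of the 6 genes was not tested.

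The named genes with the most similar pair of log2 changes, for stage and for notochord, were looked up among 3584 genes with a symbol and at least 10 CPM in their highest group mean, with the distance taken in the plane of both changes over the 3 groups. The nearest to mmp11 was the keratin gene krt17, at a distance of 0.096 (log2 changes 6.91 and 0.083). The nearest to mmp9 were spon2 and FAP, both at 0.12, and slc4a4 at 0.17, and the nearest to mmp3 were cyp3a4 (0.12), pkd1 (0.14) and csf2rb (0.15). The nearest to mmp9-th was mmp13l, at 1.12, and the nearest to mmp13l was the amino acid transporter gene slc6a14.2, at 1.06, with mmp9-th and mmp11 next. Its log2 change for the notochord had the opposite sign to that of mmp13l, at -0.29 (27.4 CPM in whole and 33.6 CPM in dissected tail), so slc6a14.2 was near by its stage change only. For mmp13 the nearest was olfm4, a secreted glycoprotein gene, at 1.03 (286 CPM in whole and 23.7 CPM in dissected tail), followed by scppa2 at 1.97. The genes nearest to mmp9-th, mmp13l and mmp13 were thus farther away than those nearest to mmp9, mmp3 and mmp11. Few genes have changes as large, with mmp9-th and mmp13l at ranks 2 and 5 for the stage and mmp13 at rank 13 for the notochord. The distance is taken on these same changes, and only genes with a symbol were candidates. A greater distance therefore follows in part from the size of the changes.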

How the data were processed

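Sequencing libraries were built from total RNA (Illumina TruSeq), per the labels' protocols. The submitters' processing notes name STAR 2.5.4a and featureCounts 1.5.2; build, strand setting and handling of multiply mapped reads are not stated in the sources used here. The count table holds the authors' raw counts for each Ensembl gene with its exon length and scaffold position, per the file headers. The authors' deposited lists give group means of FPKM and ratios of these, for 8054 genes with a stage ratio over 2 and for 936 with a ratio over 2 of whole to notochord-removed tail. Only these lists carry symbols.

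The test was edgeR 4.0.16 in R 4.3.3 (filterByExpr, TMM, robust quasi-likelihood fit) over 9 libraries, with the 3 groups as the design. Calls needed an adjusted p under 0.05 (Benjamini-Hochberg, 14125 tested genes), and SE is the log2 change over the root of F. TMM factors ranged from 0.672 to 0.690 for stage 60 and from 1.18 to 1.25 for stage 63. Library size alone as the scale moved the median gene by 0.82 (log2) between stages and by -0.032 between stage 63 groups, and stage changes are relative to that shift. No pair of replicate libraries was the same within sampling noise (chi-square per degree of freedom at least 2.53). Replicate 3 of dissected tail stood at 22.9 and 19.9 against replicates 1 and 2, which stood at 3.09 against each other. Replicates 1 and 3 of whole tail at stage 63 stood at 21.9. Alternatives were other scalings, no filter, DESeq2 1.42.0, 6-library fits, a replicate block, leaving out each library and summed paralogs.

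The 6 genes and the 12 other lists were chosen with earlier results of these data known. The text names the 6 genes, up to 3 genes per list by p in each comparison and up to 3 of the nearest patterns of each of the 6, plus a few genes that stand beside a count or on the same scaffold.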

Additional observations from a re-analysis of the deposited data

How the results depend on the processing

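Over the alternatives the 6 genes stayed called in the stage comparison and in notochord-removed against stage 60 tail, and 4 or 5 were called between whole and notochord-removed tail. With DESeq2 the 5 differed from those of edgeR, since mmp9-th was lost (adjusted p = 0.0741) and mmp11 gained (adjusted p = 0.0298). The labels do not say whether the replicate numbers pair the samples. Between whole and notochord-removed tail, same-numbered libraries correlated in their deviations from the group means at 0.21, -0.032 and 0.25. Differently numbered ones correlated at -0.29 to 0.15, which does not settle whether they are paired. A replicate block called 4 of the 6, with mmp9-th at edgeR adjusted p = 0.0614, and 4204 genes in all against 3613. Leaving out single libraries gave 2481 to 4423 calls in that comparison, the most without replicate 3 of notochord-removed tail. Without that library the log2 difference was 0.53 for mmp9 and 0.48 for mmp3. For mmp13, mmp13l, mmp9 and mmp3 the direction and call between whole and notochord-removed tail held in every setting run. When single libraries were left out, mmp13 lay at 3.31 to 3.48 and mmp13l at 0.69 to 0.79. Stage changes grew by about the shift of all genes when library size alone was used. By construction the summed pairs moved the values of mmp13 and mmp9 toward the more abundant partner. The 3 count ratios kept their sign without any single library, and the low stage 60 counts of mmp9-th (70 to 242) limit the precision of its stage change.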

Other observations

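The stage 60 libraries differed in the level of several of the 6 genes. Replicate 1 was the highest of the 3 in CPM for 4 of the 6, mmp9-th, mmp13l and mmp11 (242, 186 and 138 counts) and, by a small margin, mmp3 (63.8 CPM, against 60.2 and 62.9 CPM). It was not the highest in CPM for mmp9 or mmp13. Among the 74 tested genes with a log2 stage change of at least 5, replicate 1 was the highest stage 60 library for 43, replicate 2 for 12 and replicate 3 for 19. Among the 7663 genes that changed by less than 1 in either direction, replicate 1 was the highest for 32.6%. The count is a description, since genes are not independent of each other and the stage change was taken from the same libraries, and no cause was tested.

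The most abundant of the 6 per length at stage 60, mmp9 and mmp3, were those with the smallest stage changes, and mmp9-th, the lowest by mean at stage 60, had the largest. Since the stage 60 level enters the change itself, this order is given as values with no test.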
